A study of Mus musculus with 8 samples.

Results

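Of the 41128 gene symbols in the deposited table, 45 cell cycle and DNA replication genes were followed in the distal ileum of mice that lack Cftr and of wild-type mice from the same litters. The members were taken by symbol from a fixed list, and each of the 45 was in the table. They comprise 17 genes of the G1 to S transition and of S phase (the S phase members), 26 genes of G2 and mitosis (the mitotic members), and Ccnd1 and Ccna2, which were placed in neither list because cyclin D1 acts in G1 and cyclin A2 in both S phase and mitosis.

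A cell that divides copies its DNA in S phase and separates the copies in mitosis. In G1, cyclin D and cyclin E with their kinases release the E2F factors, which switch on genes for replication origins, DNA synthesis and nucleotide supply. Later in the cycle, complexes that contain B-Myb or FOXM1 switch on the genes for cyclin B, the spindle, the kinetochore and the final cut between the daughter cells. In the small intestine, division takes place in the crypts, where stem cells and their transit-amplifying daughters feed the villi, and in immune follicles.

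Whole sections of ileum, up to 6 cm above the valve to the caecum, were taken from 8 FVB mice that formed 4 littermate couples, each a wild-type animal (Cftr N/N, WT) and a sex-matched Cftr null animal (Cftrtm1Cam, KO). Cftr encodes a chloride and bicarbonate channel of the gut epithelium, which is lost in cystic fibrosis. Couples 1 and 3 were female and couple 2 was male, and these 3 couples had no antibiotics, so that the untreated WT and KO groups held 3 mice each. A further couple, labelled female, drank water with ciprofloxacin at 0.3 g/L and metronidazole at 0.5 g/L (the antibiotic couple, 1 WT and 1 KO mouse). All mice ate a low fiber diet and had drunk an osmotic laxative, which was stopped more than 4 days before sampling, and no more than 20 min passed between the sampling of littermates. The sources used here give neither their ages nor the length of the antibiotic treatment.

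Each mouse gave 1 library of polyadenylated RNA from whole tissue, in which epithelium, muscle and immune cells are mixed. The values were taken to be per length and per library size and are called RPKM-like here, since the table names no unit. The deposited values had been normalized in 3 separate sets, namely couples 1 and 2 together, couple 3, and the antibiotic couple. Any difference between the antibiotic couple and the others therefore coincides with a litter and a normalization set, and these cannot be told apart from the antibiotics. In the WT library of the antibiotic couple, 376 genes shared a non-zero value with another gene, against 18 to 26 genes in each other library, and 423 genes were left out of comparisons with that couple as doubtful. Ndc80 and Plk1 were the members among them. Cftr itself read 12.4, 9.94 and 10.1 in the untreated WT libraries and 3.74, 2.65 and 3.17 in the KO libraries, and 13.8 and 4.94 in the WT and KO libraries of the antibiotic couple. The KO libraries were the low ones in each couple.

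Promoter sequences from RefSeq (GRCm38.p6) were found for 36 of the 45 members, and none was printed or searched for Gins2, Ccne2, Foxm1, Aurkb, Mcm4, Ccnd1, Ccna2, Kif20a and Tpx2. In each window of 250 bases before to 50 bases after the gene's start, exact words were searched on both strands. They were the E2F words TTTGGCGC, TTTCGCGC, TTTCCCGC and TTTGCCGC, the words TTTGAA and TTTAAA of the cell cycle genes homology region (CHR), and the CCAAT box that NF-Y binds. The words were chosen after the values were seen. The E2F words can overlap each other, as they do in Mcm5 and Mcm6. The sequences below are the 160 bases that end just before the start of 4 mitotic and 2 S phase members. In the antibiotic couple the KO against WT difference of these mitotic members lay below 0 and that of these S phase members above it. Most members of each list shared that sign, so these are picked examples. Both S phase examples hold E2F words, which 6 of 14 S phase windows held. Mcm5 also holds a CHR word, 221 bases before its start and outside the printed bases. The sequences are written 5′ to 3′ on the strand of the gene, with each matched word, or its reverse complement, in capitals. Ccnb1 lies on the minus strand (chr13:100786487-100786646), as do Cdc20 (chr4:118437344-118437503), Cdk1 (chr10:69352913-69353072) and Mcm6 (chr1:128359706-128359865). Cenpa (chr5:30666726-30666885) and Mcm5 (chr8:75109349-75109508) lie on the plus strand.
Ccnb1: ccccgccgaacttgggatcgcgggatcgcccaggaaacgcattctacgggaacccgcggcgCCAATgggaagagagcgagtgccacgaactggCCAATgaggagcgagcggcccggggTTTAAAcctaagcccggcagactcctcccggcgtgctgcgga
Cdc20: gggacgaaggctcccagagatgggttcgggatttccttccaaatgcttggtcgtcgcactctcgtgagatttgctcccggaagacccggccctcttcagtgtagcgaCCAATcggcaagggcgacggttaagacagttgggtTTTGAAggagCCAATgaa
Cenpa: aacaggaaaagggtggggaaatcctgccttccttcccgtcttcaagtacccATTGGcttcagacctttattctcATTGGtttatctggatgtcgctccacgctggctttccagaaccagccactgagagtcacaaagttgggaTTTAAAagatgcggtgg
Cdk1: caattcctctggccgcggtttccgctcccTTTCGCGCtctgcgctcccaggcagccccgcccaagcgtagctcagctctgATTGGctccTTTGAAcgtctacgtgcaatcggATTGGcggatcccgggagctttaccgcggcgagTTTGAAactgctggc
Mcm5: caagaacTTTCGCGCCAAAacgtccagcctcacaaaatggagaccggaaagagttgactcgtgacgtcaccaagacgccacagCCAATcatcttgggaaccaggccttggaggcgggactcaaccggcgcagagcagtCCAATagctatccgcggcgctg
Mcm6: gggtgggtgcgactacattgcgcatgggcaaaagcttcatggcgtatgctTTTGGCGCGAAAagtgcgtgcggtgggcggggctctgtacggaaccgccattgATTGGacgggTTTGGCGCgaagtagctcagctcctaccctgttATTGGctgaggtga
Both Ccnb1 and Cenpa carry TTTAAA and 2 CCAAT boxes, and Cdc20 carries TTTGAA with 2 CCAAT boxes. Cdk1, which encodes the kinase of mitotic entry, carries TTTGAA at 2 places, 2 CCAAT boxes and an E2F word, and it was the 1 mitotic member with an E2F word.

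In untreated mice, cell cycle genes read higher in the KO ileum than in the WT ileum, in both phases of the cycle. Of the 44 members that passed the filter on low values (at least 1 in at least 3 libraries), 39 were above their WT littermate in each of the 3 couples, against 28.1% of all 11717 genes tested. These 39 were 11 of 16 S phase members, 26 of 26 mitotic members, Ccnd1 and Ccna2. The median log2 change, KO minus WT on log2(value + 1), was 0.38 over the members and -0.01 over all genes tested. For 15 members the groups did not overlap, with all 3 KO libraries above all 3 WT libraries, against 10.4% of all genes. They were Ccne1, Rrm2, Tyms, Ccnd1, Ccna2, Ccnb1, Ccnb2, Cdk1, Aurka, Aurkb, Birc5, Cenpa, Ndc80, Tacc3 and Cdc20. Whether more cells were cycling or each held more of these transcripts cannot be told apart in whole tissue.

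The test result depended on whether littermates were compared with each other. Without the couple as a block, limma called none of the 44 members (16 had an unadjusted p under 0.05, as had 1871 of all 11717 genes, and the lowest adjusted p was 0.0534 for Ccnd1), against 1.15% of all genes called higher. With the couple as a block, limma called 23 members higher and 0 lower at an adjusted p under 0.05, against 8.4% of all genes called higher. The 23 were 3 S phase members, 18 mitotic members, Ccnd1 and Ccna2, and 35 of the 44 had an unadjusted p under 0.05, as had 4561 of all 11717 genes. Leaving out couple 1, 2 or 3 from the blocked fit left 0, 1 (Rrm2) and 1 (Ccnd1) members called, while the number of genes called in either direction went from 2145 to 464, 421 and 523. With 1 library per mouse, the p-values without the block rest on the spread between these few animals of each genotype. Those with the block rest on the spread of the differences between littermates over these few couples.

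**Figure D1:**
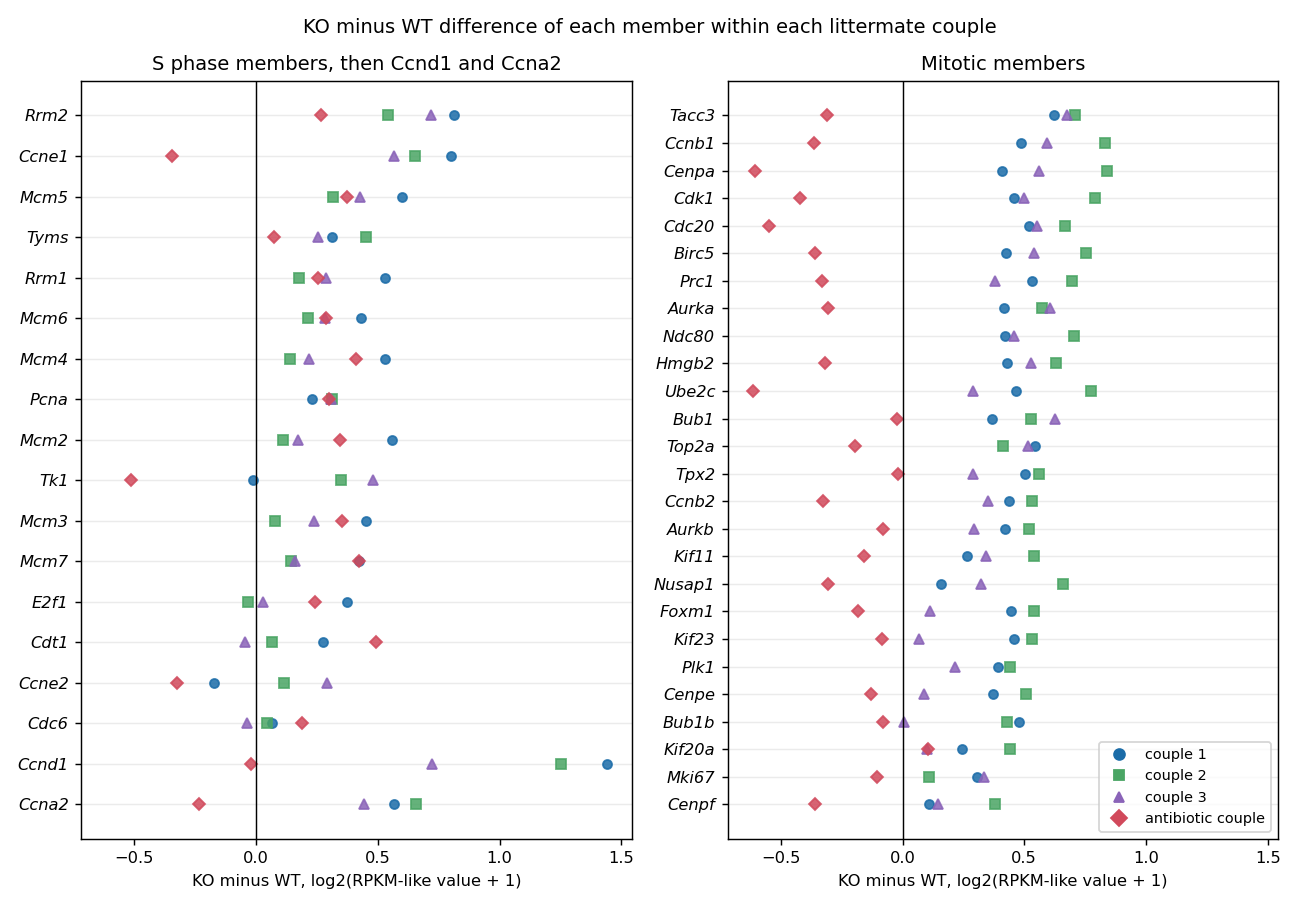
KO minus WT difference within each littermate couple (x axis, log2(RPKM-like value + 1)) for each tested member (rows), with couples 1, 2 and 3 as circles, squares and triangles and the antibiotic couple as diamonds. The mitotic members lie above 0 in the 3 untreated couples and, but for Kif20a, below 0 in the antibiotic couple, while most S phase members lie above 0 in all of them; Ndc80 and Plk1 have no diamond because the WT value is doubtful.

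Ccnd1, the G1 cyclin that growth signals induce, showed the largest difference of the 44. It read 28.3, 27.1 and 26.9 in the WT libraries of couples 1, 2 and 3, and 78.4, 65.9 and 45.01 in the KO libraries. The WT libraries lay within 2 units of each other and every KO library lay far above them. The WT mean of 27.4 ± 0.733 compared with 63.1 ± 16.9 for KO (SD, n = 3 each). On the log2(value + 1) scale the change was 1.14 with SE 0.23, or 2.20-fold (limma adjusted p = 0.0534, with the couple block 0.0202). On the opposite strand, LTO1 shares 23.4% of the exon bases of Ccnd1, and whether the counting used strand is unknown here. Ccna2, the cyclin of S phase and G2, read 16.7, 11.6 and 13.9 in WT and 25.2, 18.9 and 19.3 in KO, with no overlap between the groups (log2 change 0.56, adjusted p with the block 0.0214).

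Among the G1/S regulators, Ccne1 (cyclin E1, which drives entry into S phase) read 1.42, 2.03 and 1.74 in WT and 3.21, 3.77 and 3.06 in KO. All KO libraries lay above all WT libraries. The log2 change was 0.67 (SE 0.16, limma adjusted p = 0.0907, with the block 0.0212). Its sister cyclin Ccne2 read 2.03, 1.33 and 2.29 in WT and 1.69, 1.52 and 3.03 in KO, and was lower in KO in couple 1. E2f1, a factor that switches on replication genes, had differences of 0.37, -0.03 and 0.03 in the 3 couples and was not called in either fit (adjusted p 0.78 and 0.478).

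Licensing of replication origins is the loading of the MCM helicase, the ring of Mcm2 to Mcm7, by Cdc6 and Cdt1. Mcm5 read 10.1, 13.8 and 9.80 in WT and 15.8, 17.5 and 13.5 in KO. It was higher in the KO littermate in each couple, but the lowest KO library lay below the highest WT library. The log2 change was 0.45 (SE 0.19, limma adjusted p = 0.296, with the block 0.0355). The 6 MCM genes differed from their littermate by 0.42 to 0.60 in couple 1, by 0.08 to 0.32 in couple 2 and by 0.16 to 0.43 in couple 3. All 6 were above 0 in each of these couples (medians 0.49, 0.14 and 0.23), and Mcm5 was the 1 of them that passed with the block. Neither loader was called in either fit. Cdc6 read 1.501, 2.15 and 1.59 in WT and 1.61, 2.25 and 1.52 in KO, the smallest difference of the S phase members (log2 change 0.02, SE 0.18, adjusted p = 0.967, with the block 0.867). Cdt1 read 2.05, 7.43 and 2.59 in WT and 2.69, 7.82 and 2.47 in KO, so that both mice of the male couple 2 stood far above the others. Gins2, a subunit of the active helicase, did not pass the filter, with 0.43, 1.39 and 0 in WT and 0.67, 3.29 and 0 in KO, and 0.42 and 0.48 in the antibiotic couple. Gse1 covers 67.3% of its exon bases on the opposite strand.

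At the fork, Pcna (the clamp that holds DNA polymerase) had the highest level of the S phase members, and read 37.2, 27.8 and 40.0 in WT and 43.9, 34.7 and 49.7 in KO. Every KO mouse was above its littermate, by 0.23, 0.31 and 0.31 on the log2 scale, although the groups overlapped. The means were 35.0 ± 6.36 and 42.8 ± 7.52 (SD, n = 3 each), and the log2 change of 0.28 (SE 0.21) was not called (limma adjusted p = 0.582, with the block 0.055). Rrm2, the regulated subunit of ribonucleotide reductase, read 7.36, 6.34 and 6.76 in WT and 13.7, 9.68 and 11.8 in KO. The groups did not overlap, and the log2 change of 0.69 (SE 0.17) was the largest of the S phase members (limma adjusted p = 0.0952, with the block 0.0176). The partner subunit Rrm1 and the thymidylate enzymes Tyms and Tk1 had log2 changes of 0.27 to 0.34 and were not called in either fit. Tk1 was level with its littermate in couple 1 (3.98 in WT and 3.93 in KO).

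**Figure D2:**
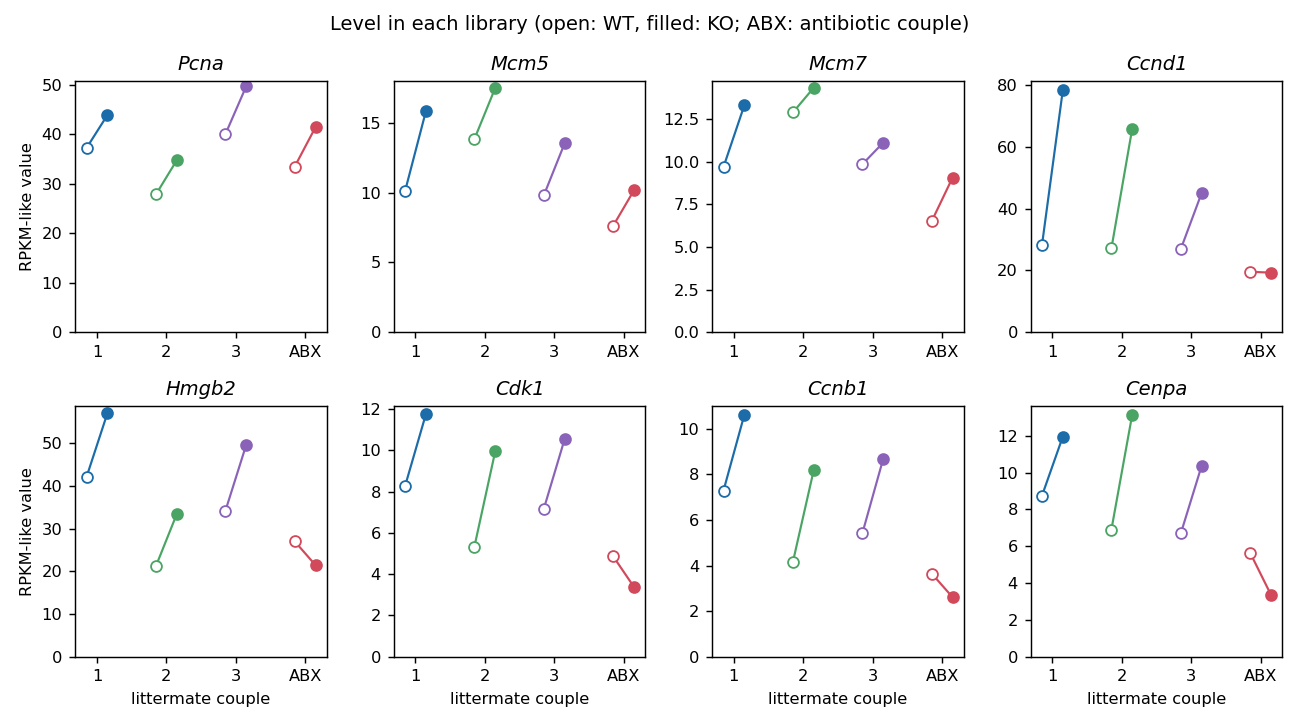
Level of 8 members in each library (y axis, RPKM-like value, from 0) by littermate couple (x axis), with open circles for WT, filled circles for KO and a line joining littermates. Pcna, Mcm5 and Mcm7 are higher in KO in all 4 couples, Ccnd1 is level in the antibiotic couple (19.6 and 19.3), and Hmgb2, Cdk1, Ccnb1 and Cenpa are lower in KO there.

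Mitotic entry is driven by Cdk1 with cyclin B. Ccnb1 (cyclin B1) read 7.29, 4.16 and 5.41 in WT and 10.6, 8.18 and 8.66 in KO, and Cdk1 read 8.26, 5.34 and 7.17 in WT and 11.7, 9.95 and 10.5 in KO. Neither gene's groups overlapped. The log2 change of Ccnb1 was 0.64 (SE 0.21, limma adjusted p = 0.185, with the block 0.0242) and that of Cdk1 was 0.58 (SE 0.18, limma adjusted p = 0.169, with the block 0.0276). Over the 6 genes of this group (with Ccnb2, the kinases Aurka and Plk1, and Foxm1, the factor that drives mitotic genes) the median log2 change was 0.49, and Foxm1 was the 1 member not called with the block.

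The marks most used to count dividing cells were less even. Mki67, the Ki-67 antigen, read 16.1, 13.9 and 5.98 in WT and 20.2, 15.02 and 7.81 in KO. Both mice of couple 3 were low, so the groups overlapped widely (12.0 ± 5.33 and 14.3 ± 6.21, SD, n = 3 each). Its log2 change of 0.25 (SE 0.42) was not called (limma adjusted p = 0.834, with the block 0.0981). Top2a, the topoisomerase that untangles chromosomes, read 16.02, 9.46 and 8.28 in WT and 23.8, 12.9 and 12.3 in KO. Its groups overlapped too, and its log2 change was 0.49 (SE 0.32, limma adjusted p = 0.511, with the block 0.0232). Hmgb2, a chromatin protein of dividing cells, had the highest level of the mitotic members, 42.2, 21.3 and 34.1 in WT and 57.1, 33.4 and 49.6 in KO. The 3 KO mice were each above their littermate, but couple 2 was low in both genotypes, so the groups overlapped (log2 change 0.53, SE 0.30, limma adjusted p = 0.45, with the block 0.0225).

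Kinetochores attach chromosomes to the spindle, and the checkpoint delays anaphase until they do. Cenpa, the histone variant that marks centromeres, read 8.74, 6.90 and 6.69 in WT and 11.9, 13.1 and 10.4 in KO, with no overlap (log2 change 0.60, SE 0.17, limma adjusted p = 0.127, with the block 0.031). Cenpf had the smallest log2 change of the mitotic members (0.21, SE 0.30, adjusted p = 0.792, with the block 0.192), with 3.01, 2.25 and 1.22 in WT and 3.33, 3.23 and 1.45 in KO. Among the 8 genes of the group, Bub1, Aurkb, Birc5, Cenpa and Ndc80 passed with the block, and Bub1b, Cenpe and Cenpf did not.

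For the spindle and cytokinesis, Tacc3, which stabilises spindle microtubules, had the largest log2 change of the mitotic members. It read 6.57, 4.67 and 4.76 in WT and 10.7, 8.27 and 8.20 in KO. The groups did not overlap, and the 3 couples differed by similar amounts, 0.62, 0.71 and 0.67 (log2 change 0.67, SE 0.18, limma adjusted p = 0.125, with the block 0.0148). The motors and bundlers of this group (Kif11, Kif20a, Kif23, Nusap1, Tpx2 and Prc1) had log2 changes of at least 0.26, and Kif11, Tpx2 and Prc1 passed with the block. Cdc20 and Ube2c act with the anaphase-promoting complex at mitotic exit. Cdc20 read 17.7, 16.9 and 13.9 in WT and 25.8, 27.5 and 20.8 in KO, with no overlap (log2 change 0.58, SE 0.18, adjusted p with the block 0.0178), and Ube2c had a log2 change of 0.51 (adjusted p with the block 0.0465). Tnnc2 shares 22.8% of the exon bases of Ube2c on the opposite strand, and Cdc23 shares 29.3% of those of Kif20a.

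Contrasting the phases, the median log2 change in untreated mice was 0.28 over the 16 S phase members and 0.47 over the 26 mitotic members, a difference of -0.19. Within couples, the medians differed by -0.00, -0.39 and -0.08 for couples 1, 2 and 3 (SD 0.207). The gap between the phases was thus smaller than its spread between couples, and it was widest in the male couple 2, in which the MCM genes differed least and the mitotic genes most.

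The antibiotic couple showed the phases apart. In it, 13 of 16 S phase members were higher in the KO mouse, while 23 of 24 mitotic members with a usable value were lower. In all, 28 of 42 members were below WT in that couple, against 56.6% of all genes. The median log2 difference was 0.28 over the S phase members, -0.31 over the mitotic members and -0.04 over all genes. For 26 of 42 members (1 S phase, 23 mitotic, Ccnd1 and Ccna2) the KO mouse was above WT in the 3 untreated couples and below it in the antibiotic couple, against 13.7% of all genes. These counts of members were the same with the libraries centred or quantile normalized together, where the median over the mitotic members was -0.30 and -0.29. The antibiotic couple has no replicate, so the differences within it carry no error.

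Most S phase members were higher in the KO mouse of the antibiotic couple as well. Pcna read 33.5 in the WT and 41.4 in the KO library of the antibiotic couple, Mcm5 7.63 and 10.2, and Rrm2 4.10 and 5.13. The 6 MCM genes were higher in KO by 0.29 to 0.42 on the log2 scale, where their medians in the untreated couples were 0.49, 0.14 and 0.23. Cdc6 read 0.897 and 1.16 and Cdt1 1.37 and 2.34, and the difference of 0.49 for Cdt1 was the highest of the list. The S phase members that were lower in the KO mouse were Tk1 (2.03 and 1.12), Ccne1 (1.499 and 0.969) and Ccne2 (1.51 and 1.01).

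The mitotic genes were lower in the antibiotic-treated KO mouse than in its littermate. Ccnb1 read 3.65 in WT and 2.61 in KO, Cdk1 4.86 and 3.38, Cenpa 5.64 and 3.36, and Tacc3 4.26 and 3.25. The largest differences were -0.62 for Ube2c (8.19 and 5.0), -0.61 for Cenpa and -0.55 for Cdc20 (12.3 and 8.08). Differences smaller than these were found for Mki67 (10.2 and 9.40), Top2a (9.63 and 8.27), Hmgb2 (27.0 and 21.5) and Cenpf (1.68 and 1.09). The smallest were -0.02 for Tpx2 and Bub1 and -0.08 for Bub1b, Aurkb and Kif23, where the median over all genes was -0.04. Kif20a was the 1 mitotic member that was higher in KO, at 2.57 and 2.84. Ccnd1 was level, at 19.6 and 19.3, where each untreated KO mouse had been well above its littermate. Ccna2 read 10.5 in WT and 8.79 in KO. For the mitotic members with doubtful WT values, the KO library read 1.63 for Ndc80 and 6.82 for Plk1.

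Whether the KO against WT difference itself differed with antibiotics was tested as an interaction in limma over all 8 libraries, and no member was called. Since each antibiotic group holds 1 library, the errors in this test come from the spread of the untreated libraries alone. Without a block, 11 members had an unadjusted p under 0.05 (483 of all 11520 genes) and the lowest adjusted p was 0.779 (Cenpa, a change of -1.21, SE 0.33), against 0% of all genes called. With the couple as a block, 21 members had an unadjusted p under 0.05 (1850 of all genes) and the lowest adjusted p was 0.117 (Cdc20, a change of -1.13, SE 0.15), again against 0% of all genes called. By sign, the interaction was below 0 for 24 of 24 mitotic and 8 of 16 S phase members. It was below 0 for 5698 of the 11341 genes in this fit that were also tested in untreated mice.

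Each library's balance between the phases is the mean log2 level of its S phase members minus that of its mitotic members. It was -0.41 and -0.43 in the WT and KO libraries of couple 1, 0.12 and -0.24 in couple 2, and -0.08 and -0.18 in couple 3. In these couples the KO library leaned further towards mitotic transcripts than its littermate, by 0.02, 0.35 and 0.10. In the antibiotic couple the balance was -0.22 in WT and 0.21 in KO, a difference of 0.43 in the opposite direction. The KO library of that couple had the lowest mitotic mean of the 8 libraries (2.28) while its S phase mean (2.49) lay above that of its littermate (2.32).

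**Figure D3:**
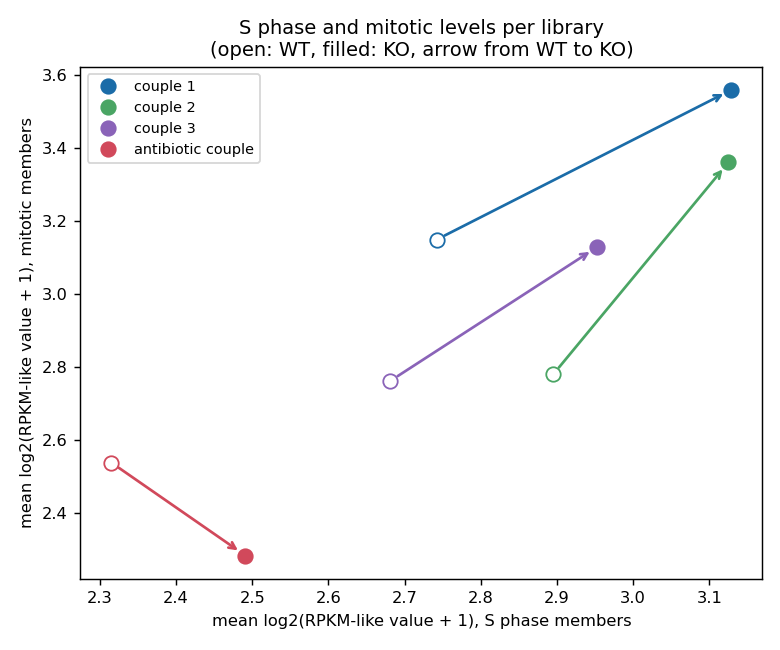
Mean log2(RPKM-like value + 1) of the S phase members (x axis) and the mitotic members (y axis) in each library, with open circles for WT, filled circles for KO and an arrow from WT to KO in each couple. In couples 1, 2 and 3 the arrow points up and to the right, and in the antibiotic couple it points down and to the right, from 2.54 to 2.28 on the mitotic axis.

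Against untreated mice of the same genotype, the mean log2 level of each phase list was lower in both antibiotic libraries. The S phase mean was 2.32 in WT (2.68 to 2.895 untreated) and 2.49 in KO (2.95 to 3.13). The mitotic mean was 2.54 in WT (2.76 to 3.15 untreated) and 2.28 in KO (3.13 to 3.56), so its gap was wider in KO. In WT, the mitotic members Mki67, Top2a, Hmgb2, Bub1, Birc5, Cenpe, Cenpf, Kif11 and Nusap1 with antibiotics lay within the untreated WT range. So did the S phase members Pcna, Ccne1 and Ccne2, and the other tested members with a usable value lay below it. For 24 of 42 members (7 S phase, 15 mitotic, Ccnd1 and Ccna2) both antibiotic libraries lay below all 6 untreated libraries, against 17.4% of all genes. In a fit of genotype and antibiotics over all 8 libraries, limma called 0 of 42 members (29 had an unadjusted p under 0.05, as had 2240 of all 11520 genes, and the lowest adjusted p was 0.0931), against 0.026% of all genes called lower. The median log2 change with antibiotics was -0.64 over the members, -0.50 over the S phase members, -0.70 over the mitotic members and -0.14 over all genes in that fit. The fit takes the change with antibiotics as the same in both genotypes. Centring the libraries moved the median of all genes to 0.04 and left 41 of 42 members below 0, with a median of -0.45, and Pcna was the exception. Ccnd1 showed a change of -1.05 (SE 0.29, adjusted p = 0.133) and Rrm2 one of -0.83 (SE 0.17, adjusted p = 0.103), while Pcna showed -0.04 (SE 0.20, adjusted p = 0.938). This fit and the interaction test share all 8 libraries.

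Further genes of the same processes, from lists that hold none of the members, were compared in the same fits. Among 44 other replication genes the median log2 change in untreated mice was 0.24, with 0 called in the unblocked fit and 10 called higher with the block. Gins1 (0.74), Cdc45 (0.64), both parts of the active helicase, and Fen1 (0.58), which trims Okazaki fragments, were the largest of these. Among 53 other mitotic genes the median was 0.36, with 0 called in the unblocked fit and 19 with the block, all higher, led by Cks1b (0.76), Mad2l1 (0.67) and Trip13 (0.60). With the block, 8.4% of all genes were called higher. In the antibiotic couple the medians were 0.11 for other replication genes (10 of 44 below 0) and -0.23 for other mitotic genes (45 of 49 below 0). The same order of the phases was thus found outside the member list.

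Brakes of the cycle had no common direction. The 19 tested had a median log2 change of -0.03, and with the block Wee1 (-0.55, adjusted p = 0.03), the kinase that holds Cdk1 inactive, and Cdkn1c (-0.61, adjusted p = 0.0496), a Cdk inhibitor, were called lower. Neither was called without it. With the block, 1161 of all 11717 genes were called lower. Cdkn1a, the p21 inhibitor, read 56.4, 82.1 and 122.5 in untreated WT and 69.1, 101 and 94.6 in KO, and 113 and 63.1 in the antibiotic couple. It was higher in KO in couples 1 and 2 and lower in the others (log2 change 0.07, SE 0.31, limma adjusted p = 0.946). A list of 16 tested genes for G1 cyclins, their kinases and related transcription factors holds some of the members. Of these 16, Ccnd1, Ccne1, E2f2 (0.59) and Myc (0.53) were called higher with the block, against 8.4% of all genes. Ccnd1 and Ccne1 are members already counted above, and E2f2 and Myc are not members.

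Markers of the cell types in the tissue differed between the genotypes too, and their part in the values above was not tested. The 16 markers of villus enterocytes, which do not divide, summed to 23920, 28140 and 33310 in untreated WT and 11020, 15250 and 20080 in KO, and to 32660 and 32300 in the antibiotic couple. Their median log2 change in untreated mice was -0.71. Without the block 2 were called lower, against 118 of all 11717 genes, and with it 10, against 1161. The 14 markers of crypt stem cells summed to 231 to 285 in untreated WT and 225 to 278 in KO, with a median of 0.01, and to 230 and 221 in the antibiotic couple. Znrf3 was the 1 stem cell marker listed at 0 in a library. By couple, the medians of the stem cell markers were 0.13, 0.04 and -0.13 in couples 1, 2 and 3 and -0.15 in the antibiotic couple, where 12 of 14 were below 0.

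Immune markers differed between the genotypes by cell type and couple. B cell and follicle markers (9 in the sum) went from 51.8 in WT to 74.7 in KO in couple 1, from 66.4 to 17.2 in couple 2, from 10.1 to 144 in couple 3 and from 3.94 to 110 in the antibiotic couple, and Ms4a1, Fcer2a and Pax5 were listed at 0 in some library. Of the KO sums of these markers, that of couple 2 was the lowest and that of the antibiotic couple the second highest. T and NK cell markers (14) summed to 38.4 to 48.0 in untreated WT and 90.8 to 115 in KO, and to 14.4 and 68.7 in the antibiotic couple, so they were higher in KO in all 4 couples (median differences 0.77, 0.78 and 1.19 untreated and 1.35 in the antibiotic couple). Plasma cell markers (8) had medians of 1.06, 0.90 and 0.80 in the untreated couples and 1.19 in the antibiotic couple. Without the block 3 were called higher, against 1.15% of all genes, and with it 5, against 8.4%. Myeloid markers (9) had medians of 0.49, 0.14 and -0.36 in the untreated couples and -0.20 in the antibiotic couple. The medians of the T and NK and of the plasma cell markers were above 0 in all 4 couples. The part of immune cells in the values of the mitotic members was not tested. Paneth cell markers (5 with usable values) summed to 2648 to 4142 in untreated WT and 3981 to 5060 in KO, and to 1967 and 2144 in the antibiotic couple. Smooth muscle markers had medians of 0.12, -0.77 and -0.35 in the untreated couples and -0.32 in the antibiotic couple.

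**Figure D4:**
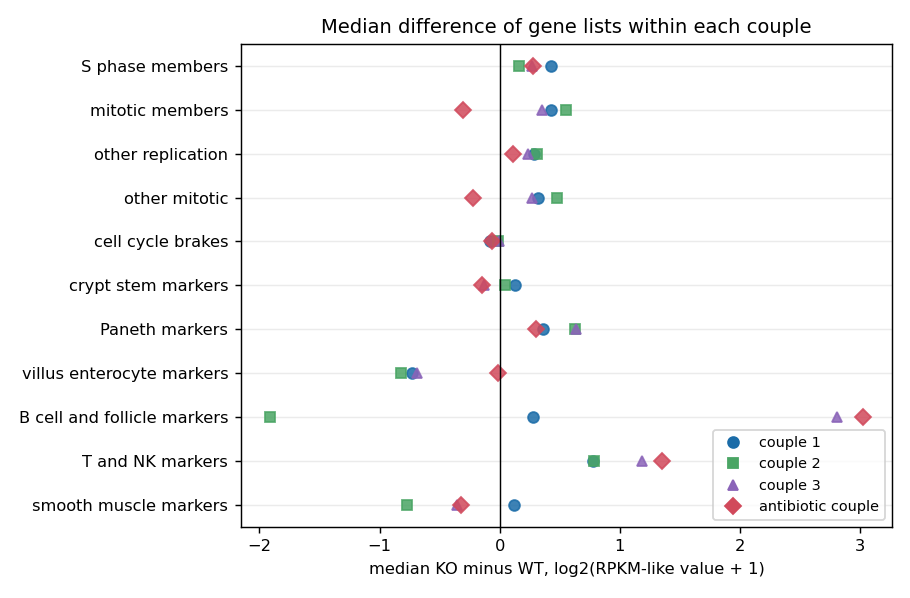
Median KO minus WT difference (x axis, log2(RPKM-like value + 1)) of the member lists, the other cell cycle lists and the cell type marker lists (rows) within each couple, with circles, squares and triangles for couples 1, 2 and 3 and diamonds for the antibiotic couple. Mitotic members and other mitotic genes have 3 untreated medians above 0 and an antibiotic median below 0 (-0.31 and -0.23), villus markers lie below 0 in the untreated couples, and B cell markers spread from -1.91 to 3.02.

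The promoter words printed above differed in share between the mitotic and the S phase members, but none of them split the lists fully. A CHR word was found in the windows of 19 of 22 mitotic members (86.4%) and 5 of 14 S phase members (35.7%), against 27.8% of all 27025 windows. An E2F word was found in 1 of 22 mitotic members (4.55%) and 6 of 14 S phase members (42.9%), against 2.32% of all windows. The CCAAT box was found in 18 of 22 mitotic members (81.8%) and 8 of 14 S phase members (57.1%), against 37.9% of all. Of the genes outside the member list, 31 of 45 other mitotic genes (68.9%) and 6 of 35 other replication genes (17.1%) held a CHR word, and 5 (11.1%) and 9 (25.7%) held an E2F word. Bub1, Nusap1 and Tacc3 were the mitotic members whose window held no CHR word.

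Set against the values, the 17 mitotic members with a CHR word and a usable value were all lower in KO in the antibiotic couple, with a median of -0.33. The 5 members with an E2F word and no CHR word (Mcm3, Mcm6, Mcm7, Cdc6 and Cdt1), all of them S phase members, were higher in KO there, with a median of 0.35. In the untreated couples the medians of the fitted log2 changes were 0.51 and 0.24. Word and phase crossed in a few members, too few in a single couple to tell the word from the phase. Of the S phase members with a CHR word, Mcm2 (0.34), Mcm5 (0.37) and Rrm2 (0.27) were higher in KO in the antibiotic couple, and Ccne1 (-0.34) and Tk1 (-0.51) were lower. The mitotic members without a CHR word, Bub1 (-0.02), Nusap1 (-0.30) and Tacc3 (-0.31), were all lower, as was Cdk1 (-0.42), which held an E2F word beside its CHR words. A match is a run of letters in a window and was not tested as a site, and word and phase cannot be told apart for most members.

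**Figure D5:**
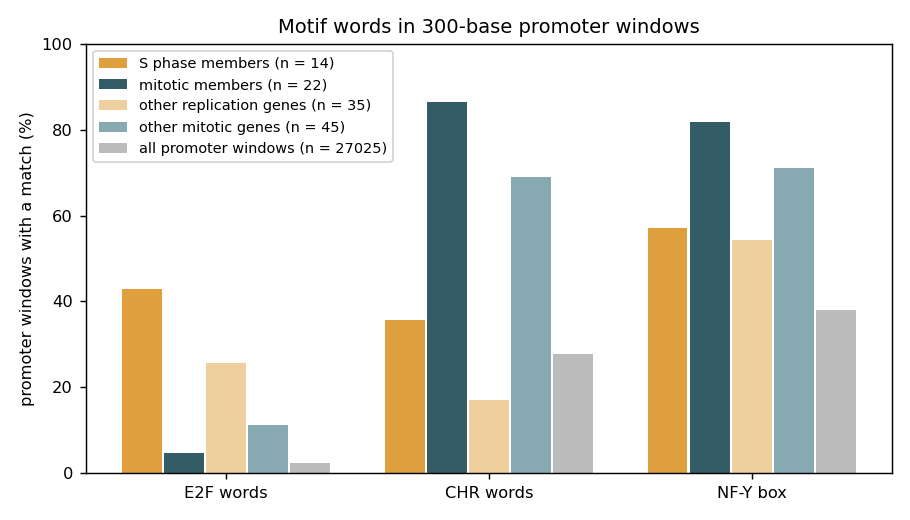
Share of promoter windows that hold at least 1 match (y axis, percent, from 0) for the E2F words, the CHR words and the CCAAT box (marked NF-Y box) (x axis), for S phase members, mitotic members, other replication genes, other mitotic genes and all windows (bars, with the number of windows in the legend). CHR words are in 86.4% of mitotic members and 27.8% of all windows, and E2F words in 42.9% of S phase members and 2.32% of all windows.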

How the data were processed

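Polyadenylated RNA of whole ileum sections was sequenced in 8 mice, 1 library each. Per the labels' design text, the authors used CLC Genomics Workbench 7.5 to map reads from a HiSeq 2000 or an Ion Proton instrument to GRCm38 with its release 76 annotation. The instrument of each library, the counting rule, the strand setting and the read depth were not given in the sources used here. Values as deposited by the authors carry no named unit and were treated as RPKM. Sorted values were identical in the 4 libraries of couples 1 and 2, and no distinct value was shared between those, couple 3 and the antibiotic couple, hence the 3 normalization sets. Values summed to 346800 to 397100 per library. Couples 1 and 2 listed 20896 genes above 0, couple 3 listed 11912 and 11931, and the antibiotic couple 13672 and 13749, so a 0 was not read as absence. No column was left unmatched to a sample.

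The scale was log2(value + 1), on which changes of low genes are understated. Genes that reached 1 in 3 or more of the libraries fitted entered limma 3.58.1 (R 4.3.3, trend in the prior variance), adjusted by Benjamini-Hochberg over all genes tested, with a threshold of 0.05. The unblocked fit of the untreated libraries was tried on simulated data without a couple effect, and the other fits were not. Alternatives used a pseudocount of 0.1, no filter, centred or jointly quantile normalized libraries, no variance trend, or left out a library or a couple. The doubtful genes of the WT antibiotic library were 376 that shared a non-zero value, 45 listed at 0 with at least 1 in the littermate, and 2 that lay under the littermate and under all untreated libraries by more than 3 log2 units.

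The labels name littermate couples, and the deviations of littermates from their group means went together (correlations over genes of 0.62, 0.64 and 0.51). Other pairs had -0.51 to -0.06. The deviations of a genotype sum to 0 over its 3 libraries, so values above 0 for littermates push those of other pairs below 0. The values of the other pairs are therefore no separate evidence of pairing. The couple block also absorbs the normalization set. Values in every library are given for Mki67, Top2a, Pcna, Ccnd1, Cdk1, the 3 members of largest change called in either fit in each phase list, those of highest level and smallest change in each, and Cdkn1a, along with Ccna2, Ccne2, Cdt1, Gins2 and Cdc20, which were chosen after their values were seen. The members, lists and tests were chosen with earlier results of these data known.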

Additional observations from a re-analysis of the deposited data

Results flagged for a closer look

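For the mitotic members, the median KO minus WT difference was 0.43, 0.55 and 0.35 on the log2 scale in untreated couples 1, 2 and 3 and -0.31 in the antibiotic couple. The other mitotic genes, outside the member list, had medians of 0.32, 0.48 and 0.27 in the untreated couples and -0.23 in the antibiotic couple. Both lists drew attention because every untreated couple lay on one side of 0 and the antibiotic couple on the other. The difference of these medians was not tested, and the gene-by-gene interaction test in limma called no gene, with 483 of all genes at an unadjusted p under 0.05 without the couple block and 1850 with it. A single couple received antibiotics, and its litter, normalization set and treatment cannot be told apart.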

How the results depend on the processing

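The count of members called higher in untreated KO depended on the pairing: it was 0 without a block and 23 with the couple as a replicate block. Without a trend in the prior variance it was 1 (Ccnd1, limma adjusted p = 0.0477). Leaving out each library in turn gave 0 to 1, the 1 being Ccnd1 without the KO library of couple 3 (adjusted p = 0.0401). With the block, leaving out each couple in turn gave 0 to 1 members, where fewer libraries were fitted and fewer genes were called in all. The median log2 change of the members, 0.38, ranged from 0.30 without the KO library of couple 1 to 0.51 without that of couple 3. Sign changes on leaving out a library occurred for Ccne2 (-0.13 to 0.21), Cdc6 (-0.090 to 0.13), Cdt1 (-0.34 to 0.55), Mki67 (-0.15 to 0.60) and Cenpf (-0.022 to 0.48). Over the single members and their alternatives, 492 values kept their direction and side of the threshold, 25 passed it where the unblocked fit had not, and 11 changed sign.

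The differences between S phase and mitotic members, untreated and in the antibiotic couple, kept their sign under each alternative run, but the untreated one, -0.19, moved to -0.07 without the WT library of couple 2 and to -0.08 in the blocked fit without couple 2. No alternative changed the counts of 0 in the antibiotic and interaction fits. An adjustment for exon length, chosen after seeing the data, gave -0.15 and 0.58 for these differences. Limits are the 3 couples per untreated group, the lone antibiotic couple, unknown depth and strand setting, and a WT antibiotic library with faulty values, of which some may remain undetected.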

Other observations

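Across all genes, the untreated KO minus WT difference varied with exon length, from a median log2 change of 0.14 in the shortest of 5 length classes of nearly equal size to -0.12 in the longest. In the antibiotic couple the medians of these classes lay between -0.04 and -0.03. The S phase members had a median exon length of 3872 bases and the mitotic members one of 4346, against 4204 for all genes tested. With each change taken relative to its length class, the median over the members was 0.44 in untreated mice.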
